A study of Mus musculus with 20 samples.

Results

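The receptors for somatostatin, galanin and neuropeptide Y (NPY) were examined in Trpv1 neurons sorted from dorsal root ganglia (DRG) of adult mice. The genes were listed by name: Sstr1, Sstr2, Sstr3, Sstr4, Galr1, Galr2, Galr3, Npy1r, Npy2r and Npy5r. Of these 10 genes, 9 were matched by Ensembl identifier among the 37620 genes of the table, and Galr3 has no identifier in the annotation used. A value was present in all 20 libraries for 7 receptors. With the low expression filter, 7 receptors were tested among 16304 genes, while Galr2 and Sstr3 fell below it.

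Somatostatin, galanin and NPY are peptides released by neurons, and their receptors are G protein-coupled receptors of which most act through the Gi/o class. When bound, such receptors lower cyclic AMP, open GIRK potassium channels and restrain the presynaptic calcium channels that drive transmitter release. In sensory neurons they are best known as brakes on nociceptor firing and on transmitter release in the spinal cord, although Galr2 can also signal through the Gq class.

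Lumbar libraries were made from L4-L5 ganglia and sacral libraries from L6-S1 ganglia, with 5 male and 5 female donors at each level, which gave 4 groups of 5. All mice were homozygous Trpv1tm2Bbm and 6 to 8 weeks old. In this line the Trpv1 locus drives the PLAP-nLacZ reporter, and the brightest cells that turned over its fluorescent galactosidase substrate were collected by flow cytometry, so each library is a sort of many cells enriched for Trpv1 neurons. Each donor label holds 2 animal numbers, whereas the study describes 5 male and 5 female mice, and whether a donor is 1 mouse or a pool is unsure. In such bulk libraries, a difference between the levels cannot tell fewer cells that express a receptor from less RNA per cell. The reads assigned to genes numbered 43499216 to 65542378 per library. Library numbers run in blocks of 1 group each, so that any effect of processing order and the group cannot be told apart.

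Markers of the sorted neurons and of other cells also moved between the levels. Of 8 markers of Trpv1 sensory neurons, 6 were upregulated in sacral DRG, among them Trpv1 itself (log2 fold change -0.96, standard error 0.15, adjusted p = 3.5e-05 by limma, adjusted over all genes tested with 0.05 as the threshold), and all 8 markers of neurons in general were. Calca and Tac1, the other 2 Trpv1 neuron markers, did not pass (0.16 and -0.10). Of 11 markers of single classes of sensory neuron, 4 were upregulated in sacral DRG, led by Th (-1.40) and Mrgpra3 (-0.94), and 2 in lumbar DRG, Pvalb (2.11) and Ntrk2 (0.77). Of 12 glial markers, 11 were upregulated in lumbar DRG. Of all genes tested, 30.4% were upregulated in sacral DRG and 15.3% in lumbar DRG. Markers of other cells that could be sorted along also went mostly toward lumbar DRG, with 6 of 8 for vessels, 3 of 5 for fibroblasts, 3 of 4 for red cells and 2 of 4 for macrophages, and 1 vessel marker went toward sacral DRG. The glial markers and the general neuron markers had a value in all 20 libraries, and the summed level of the glial markers ran from 2051 to 4079 RPKM (reads scaled to gene length and library depth) in lumbar and from 1263 to 2135 RPKM in sacral libraries. The mean of the glial markers was higher in the lumbar library of all 10 donors, and the mean of the general neuron markers was higher in the sacral library of all 10. The part of this shift in the receptor differences was not tested.

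Across the levels, 6 of the 7 receptors tested were upregulated in sacral DRG: Sstr4, Npy5r, Galr1, Npy1r, Npy2r and Sstr2. Under the marker adjustments given further on, the estimates of Sstr1 and Sstr2 turned sign under both and that of Npy2r with glial markers as a covariate. Sstr1 did not pass the threshold, and no receptor was upregulated in lumbar DRG. Of all genes tested, 45.6% passed in either direction and 30.4% toward sacral DRG. The median log2 fold change, lumbar minus sacral, was -0.76 over the 7 receptors and -0.11 over all genes tested, with negative values standing for upregulation in sacral DRG. Sstr4, Galr1, Npy1r and Npy2r were higher in the sacral library of every donor, which held for 13.7% of all genes tested. In none of the 7 receptors did the ranges of the lumbar and sacral libraries stay fully apart, which they did in 1.7% of genes, and with sacral higher in 1.29%. Of the 6, Sstr4, Npy5r and Galr1 had a log2 fold change below -1, and 1.69% of all genes tested both passed and lay below -1. Npy5r was tested only because its sacral male libraries passed the low expression filter.

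**Figure D1:**
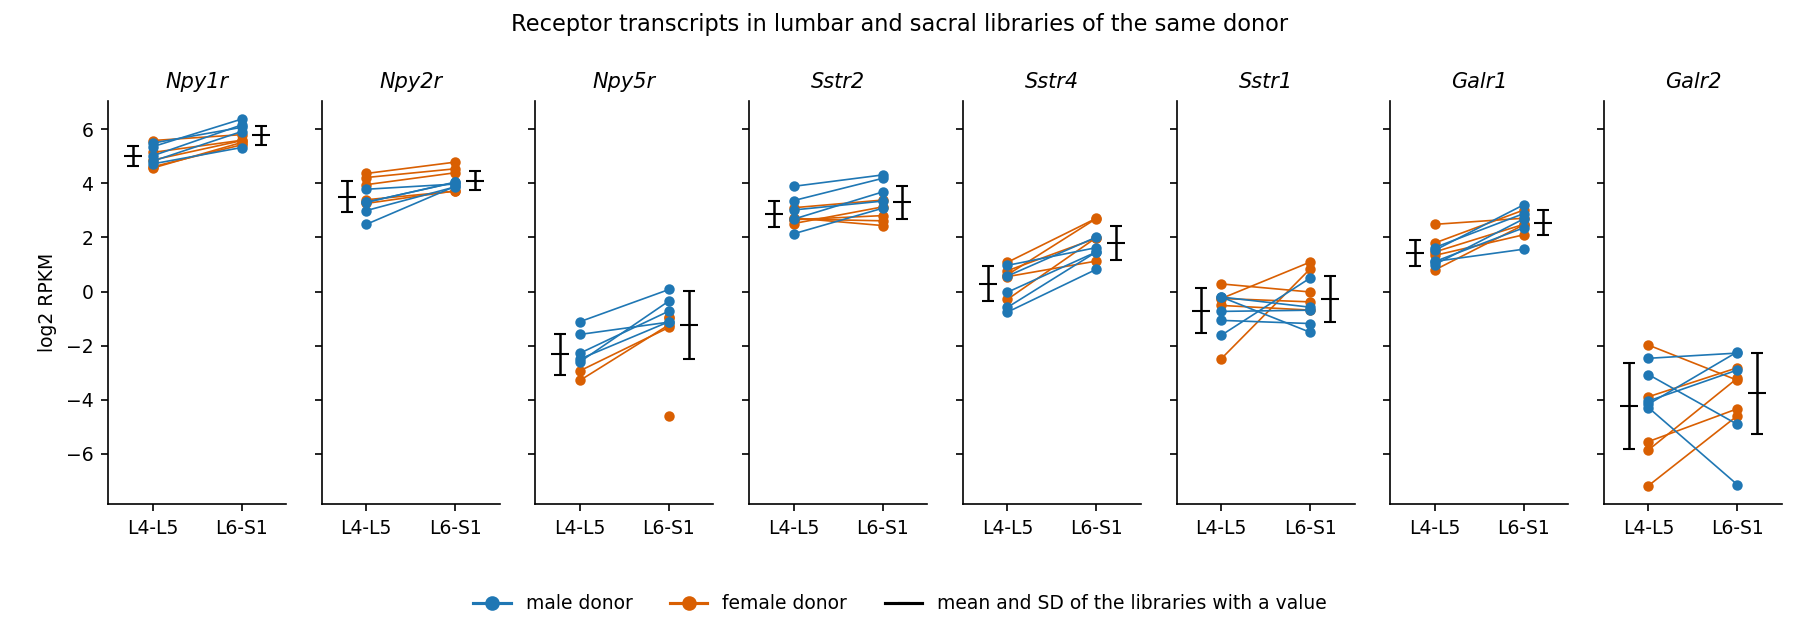
Log2 RPKM of the 8 receptors with at least 1 read in most libraries (y axis) in the L4-L5 and L6-S1 library of each donor (x axis), with lines joining libraries of 1 donor and black marks for the mean and SD of the libraries with a value. All 10 lines of Npy1r, Npy2r, Sstr4 and Galr1 climb to L6-S1, those of Sstr1 and Galr2 cross, and Npy5r has no point for 3 female L4-L5 libraries that hold 0 reads.

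Among the somatostatin receptors, Sstr4 changed most. Sstr4 (ENSMUSG00000037014, NCBIM37 chr2:148221113-148226239, plus strand) is among the receptors studied for pain relief by somatostatin. Its log2 RPKM, a level per length, was 0.97, -0.03, 0.57, -0.76 and -0.59 in the lumbar libraries of males 1 to 5 and 1.08, 0.55, 0.77, -0.29 and 0.62 in those of females 1 to 5. In the sacral libraries it was 1.63, 1.47, 2.01, 0.82 and 1.47 in the males and 2.71, 1.13, 1.97, 2.0 and 2.70 in the females. Of the sacral libraries, 9 of 10 lay above the highest lumbar library, so the groups met in a single sacral library, that of male 4. Reads numbered 55 to 213 per lumbar library and 248 to 961 per sacral library. Sstr4 was 2.83-fold higher in sacral DRG, at log2 fold change -1.50 (standard error 0.22, adjusted p = 2.0e-05 by limma).

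Sstr2 (ENSMUSG00000047904, chr11:113480656-113487319, plus strand), the main somatostatin receptor in these libraries, had the smallest change that passed. It ran from 2.14 through a median of 2.71 to 3.89 log2 RPKM in lumbar libraries and from 2.44 through 3.24 to 4.31 in sacral libraries. The groups overlapped widely, and the sacral library was the higher one in 8 of 10 donors, with females 1 and 4 as the exceptions. The log2 fold change was -0.42 (standard error 0.17, adjusted p = 0.044 by limma). This call did not hold without males 3 or 5 or without females 1, 2, 3 or 5, where the log2 fold change lay between -0.48 and -0.36 over all 10 donors left out in turn, nor in the fit without the donor block, which pairs the libraries of a donor (adjusted p = 0.086 by limma). An annotated gene on the other strand, Slc39a11, overlaps Sstr2 but shares no exon base with it.

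Sstr1 (ENSMUSG00000035431, chr12:59312759-59315431, plus strand) was far lower, with 21 to 250 reads per library. It ran from -2.49 through -0.39 to 0.28 log2 RPKM in lumbar libraries and from -1.51 through -0.48 to 1.09 in sacral libraries, so the ranges largely coincided. Only 4 of 10 donors had the higher level in the sacral library, and the estimate of -0.44 (standard error 0.33) missed the threshold (adjusted p = 0.28 by limma). Sstr3 (ENSMUSG00000044933, chr15:78367445-78374775, minus strand), a receptor known from neuronal cilia, had 2 reads in each of 3 lumbar libraries, those of males 2 and 3 and female 5, and 0 reads in the other 17. At 3 reads, the limit that a count of 0 allows, its level in those 17 libraries would be at most -5.57 log2 RPKM where this limit is highest, in lumbar female 4, counting error only.

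The stretches upstream of Sstr2 and Sstr4 are shown because these 2 genes of 1 family moved by different amounts. They hold the 250 bases before the RefSeq start (letters from RefSeq, GRCm38.p6), and each matched NCBIM37 exactly once, at chr11:113480391-113480640 and chr2:148220863-148221112, both on the plus strand.
Sstr2: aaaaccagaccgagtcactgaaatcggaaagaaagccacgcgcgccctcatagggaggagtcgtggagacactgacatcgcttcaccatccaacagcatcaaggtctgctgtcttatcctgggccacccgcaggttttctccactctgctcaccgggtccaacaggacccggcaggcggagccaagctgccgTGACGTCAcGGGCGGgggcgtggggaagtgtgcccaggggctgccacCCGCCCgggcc
Sstr4: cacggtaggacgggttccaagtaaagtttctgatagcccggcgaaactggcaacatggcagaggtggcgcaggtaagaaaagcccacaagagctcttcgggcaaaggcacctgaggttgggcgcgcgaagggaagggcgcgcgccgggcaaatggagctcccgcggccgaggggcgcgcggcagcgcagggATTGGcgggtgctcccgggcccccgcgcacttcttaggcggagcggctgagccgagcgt
Capitals mark every match, on either strand, to TGACGTCA (the cyclic AMP response element), GGGCGG (the GC box), CCAAT (the CCAAT box), TGAGTCA (the AP-1 site) and CACGTG (an E-box), and where matches touched both were marked. The Sstr2 stretch held the cyclic AMP response element 58 to 51 bases before the start and 2 GC boxes, and the Sstr4 stretch held a reversed CCAAT box 59 to 55 bases before the start. Among the 32851 upstream stretches of the same length in the table, 1.55% held the cyclic AMP response element, 32.7% the GC box and 33.8% the CCAAT box. The Sstr4 stretch counted 28 CG dinucleotides, which 7.61% of stretches matched or exceeded, and the Sstr2 stretch counted 18, beside a median of 6.

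Of the galanin receptors, Galr1 and Galr2 were measured, and Galr3 was not, for want of an identifier. Galr1 (ENSMUSG00000024553, chr18:82561888-82576169, minus strand) is a Gi/o-coupled galanin receptor. Its log2 RPKM was 1.63, 1.12, 1.53, 1.11 and 1.0 in the lumbar libraries of males 1 to 5 and 1.80, 2.49, 1.34, 0.80 and 1.46 in those of the females. In the sacral libraries it was 2.88, 1.57, 3.21, 2.36 and 2.69 in the males and 3.02, 2.71, 2.10, 2.47 and 2.49 in the females. Female 2 gave the highest lumbar value and male 2 the lowest sacral value, and 6 of 10 sacral libraries lay above the highest lumbar one. Galr1 was 2.18-fold higher in sacral DRG, at log2 fold change -1.12 (standard error 0.18, adjusted p = 5.4e-05 by limma).

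Galr2 (ENSMUSG00000020793, chr11:116142253-116145252, plus strand) had 1 to 36 reads per library. It ran from -7.18 through -4.11 to -1.98 log2 RPKM in lumbar libraries and from -7.15 through -3.24 to -2.23 in sacral libraries. These values overlap almost entirely. The sacral library was the higher one in 7 of 10 donors, and with the low expression filter the level difference was not tested because Galr2 fell below it. Without that filter Galr2 was tested and did not pass. Galr1 made up 91.6% to 99.9% of the summed RPKM of Galr1 and Galr2 in lumbar and 97.3% to 99.8% in sacral libraries.

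The NPY receptors were the most abundant family. Npy1r (ENSMUSG00000036437, chr8:69221321-69230697, plus strand), the Y1 receptor carried by many small peptidergic neurons, ran from 4.57 through 4.94 to 5.59 log2 RPKM in lumbar libraries and from 5.33 through 5.70 to 6.38 in sacral libraries. It was higher in the sacral library of all 10 donors, 6 sacral libraries lay above the highest lumbar one, and the donor differences ran from -1.14 to -0.22. The log2 fold change was -0.76 (standard error 0.12, adjusted p = 5.7e-05 by limma), from 2666 to 12430 reads per library.

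Npy2r (ENSMUSG00000028004, chr3:82342305-82352008, minus strand), the Y2 receptor that acts presynaptically, ran from 2.49 through 3.35 to 4.37 log2 RPKM in lumbar libraries and from 3.71 through 4.01 to 4.79 in sacral libraries. All 10 donors again had the higher level in the sacral library, although only 3 sacral libraries lay above the highest lumbar one and the rest overlapped. The log2 fold change was -0.59 (standard error 0.15, adjusted p = 0.0028 by limma). In females alone the call was lost (-0.39, adjusted p = 0.21 by limma).

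Npy5r (ENSMUSG00000044014, chr8:69203864-69211993, minus strand), the Y5 receptor, was near the limit of detection. Among males its log2 RPKM was -1.11, -2.28, -2.49, -2.60 and -1.59 in the lumbar libraries and 0.08, -0.72, -1.11, -0.35 and -1.13 in the sacral libraries of males 1 to 5. Among females the lumbar libraries of females 2 and 4 had -3.29 and -2.93, those of females 1, 3 and 5 had 0 reads, and the sacral libraries had -0.92, -1.23, -4.62, -1.33 and -0.98. All 7 donors with both values were higher in the sacral library, and female 3, with 6 reads, lay far below the other sacral libraries. Npy5r passed the low expression filter only through the sacral libraries of males (mean -0.65). A high sacral level thus decided that it was tested. The fit drops the 3 libraries at 0 reads and put the log2 fold change at -1.38 (standard error 0.49, adjusted p = 0.028 by limma). With those 3 set to the level of 0.5 reads the log2 fold change was -2.73 (standard error 0.64). The call did not hold without male 2 or 4 or without female 2 or 4, where the estimates over all donors left out in turn lay between -1.67 and -1.22, nor without the donor block.

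Npy1r and Npy5r lie side by side on opposite strands, with 9327 bases between them in NCBIM37, and moved in the same direction. The 250 bases before each RefSeq start are shown for that reason (letters from RefSeq, GRCm38.p6); they matched NCBIM37 once each, Npy1r at chr8:69221071-69221320 on the plus strand and Npy5r at chr8:69211994-69212243 on the minus strand, with capitals for the motifs named above.
Npy1r: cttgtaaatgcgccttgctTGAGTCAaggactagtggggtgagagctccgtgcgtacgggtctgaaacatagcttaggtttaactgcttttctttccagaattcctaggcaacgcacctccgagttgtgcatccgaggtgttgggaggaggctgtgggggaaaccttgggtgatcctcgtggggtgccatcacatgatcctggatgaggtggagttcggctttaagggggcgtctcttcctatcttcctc
Npy5r: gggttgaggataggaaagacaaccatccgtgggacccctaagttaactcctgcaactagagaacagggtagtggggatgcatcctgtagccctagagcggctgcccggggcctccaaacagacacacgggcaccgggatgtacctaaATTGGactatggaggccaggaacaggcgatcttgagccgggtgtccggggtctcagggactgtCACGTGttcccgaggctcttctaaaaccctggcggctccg
Npy1r held an AP-1 site 231 to 225 bases before the start, a motif found in 4.46% of all stretches. Npy5r held a reversed CCAAT box and an E-box 40 to 35 bases before the start, the E-box being found in 6.02% of stretches. The promoter table held 7 of the 10 receptors.

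Beyond the list, the Y4 receptor gene Ppyr1 (ENSMUSG00000048337) was upregulated in sacral DRG, with 0 to 21 reads per lumbar and 16 to 205 reads per sacral library (log2 fold change -2.40, standard error 0.58, adjusted p = 0.0028 by limma). The 4 lumbar libraries at 0 reads were dropped from that fit, and 5 of the 6 donors with both values were higher in the sacral library. Set to 0.5 reads they moved the estimate to -3.98. In males alone Ppyr1 had -1.24 (adjusted p = 0.41 by limma), and with glial markers as a covariate it had -1.82 (adjusted p = 0.52). Ppyr1 passed the low expression filter only through the sacral libraries of females (mean -0.79), so a high sacral level decided that it was tested. Sstr5 had 4 reads in 1 library, and Npy6r had reads in 6 libraries.

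The levels of the receptors spanned a wide range, and successive receptors in their order differed. RPKM is scaled to gene length, but any other bias of a gene that all libraries share stays in its level. The mean over all libraries was 5.40 log2 RPKM for Npy1r, 3.80 for Npy2r, 3.09 for Sstr2, 1.99 for Galr1, 1.04 for Sstr4, -0.48 for Sstr1 and -4.01 for Galr2. Npy5r, at -1.68 in the 17 libraries with a value, lay between Sstr1 and Galr2 and was left out of the tests of order for its empty libraries. Each of the 6 successive pairs of the other 7 receptors differed by an exact sign-flip permutation test over 10 donors (two-sided, adjusted over the 6 pairs). The order came from the same donor values. These tests therefore measure how well donors repeat it, and cannot measure a bias shared by all libraries. Npy1r exceeded Npy2r by 1.60 (SD 0.53, adjusted p = 0.0023, exact test) and did so in 20 of 20 libraries. The closest neighbours were Npy2r and Sstr2, 0.71 apart (SD 0.71, adjusted p = 0.018, exact test), where Npy2r was higher in 15 of 20 libraries and the other 5 were all from males. Npy1r alone made up a median of 57.0% of the summed RPKM of the 9 receptors in lumbar and 58.9% in sacral libraries. That sum ran from 44.1 to 85.6 RPKM in lumbar and from 72.4 to 130.7 RPKM in sacral libraries, and it was higher in the sacral library of all 10 donors.

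Differences between 2 receptors within a library do not depend on how libraries are scaled against each other, and they showed whether a family kept its balance. In lumbar libraries Sstr2 exceeded Sstr4 by 2.59 ± 0.58 log2 RPKM (SD, n = 10), and in sacral libraries the gap was 1.51 ± 1.0 (SD, n = 10). This gap narrowed in all 10 donors, by 1.08 on average (SD 0.71, adjusted p = 0.0098 by an exact sign-flip test over 10 donors, adjusted over 5 pairs). In 1 sacral library, that of female 1, Sstr4 was the higher receptor. The share of Sstr4 in the summed somatostatin receptor RPKM was 11.5% (median) in lumbar and 19.1% in sacral libraries, and in no donor was it higher in the lumbar library. Sstr1 minus Sstr4 moved by 1.06 on average and in 8 of 10 donors (SD 1.23, adjusted p = 0.068, exact test), just outside the threshold, and it passed when the libraries were compared unpaired (adjusted p = 0.028, exact test), with a pseudocount of 1 or 0.1, or without female 5. Sstr1 lay at 0.18 to 2.13 RPKM, so a pseudocount damps its term and makes the difference depend on library scaling. The passes with a pseudocount therefore do not show a shift in balance.

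The remaining pairs gave no call. In lumbar libraries Npy1r exceeded Npy2r by 1.51 ± 0.57 (SD, n = 10), while sacral libraries had 1.68 ± 0.53 (SD, n = 10), a shift of -0.17 (SD 0.31, adjusted p = 0.19, exact test) with 7 of 10 donors in that direction. Galr1 minus Galr2 shifted by -0.64 (SD 1.99, adjusted p = 0.43, exact test), and it passed once a pseudocount of 0.1 or 1 was added. Galr2 lay at 0.0069 to 0.25 RPKM, so either pseudocount damps its term and leaves mostly the level of Galr1. Such a difference also depends on library scaling, so these passes do not show a shift in balance. Sstr1 minus Sstr2 shifted by -0.02 (SD 1.41, adjusted p = 0.96, exact test), with donors moving both ways.

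**Figure D2:**
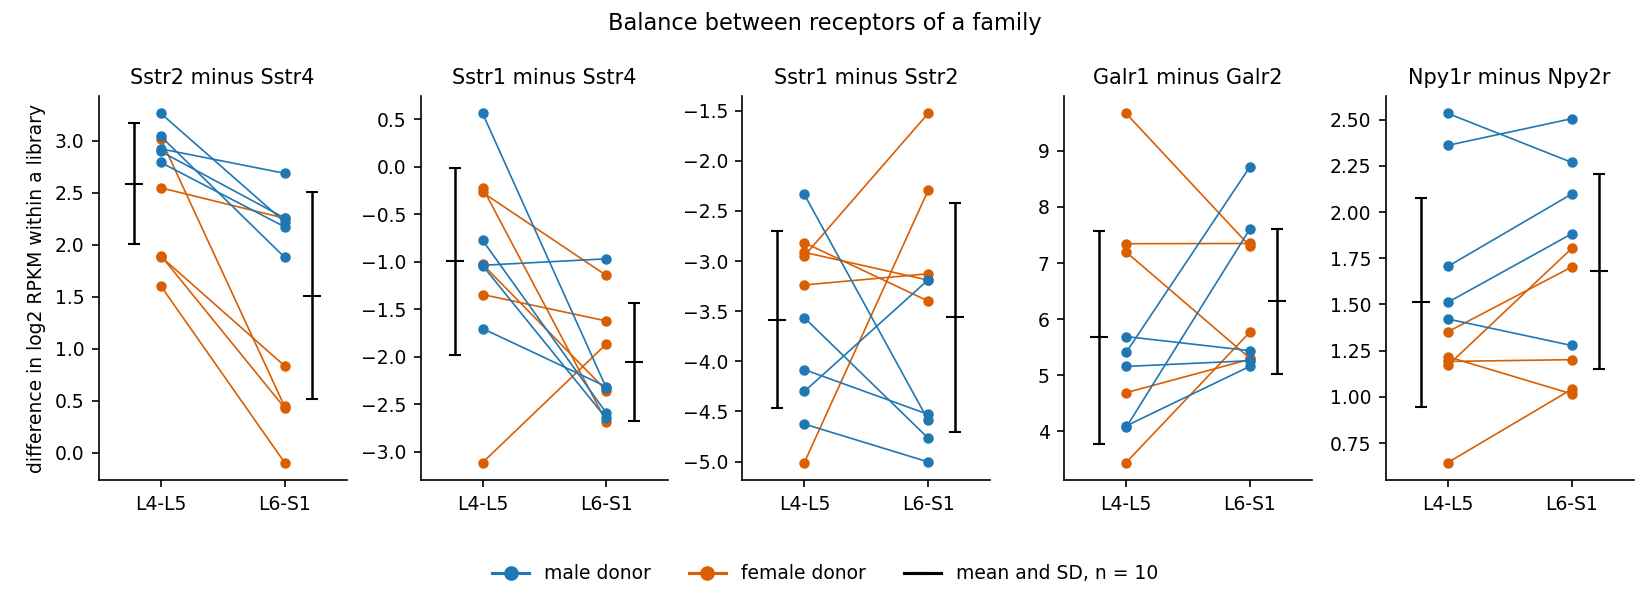
Difference in log2 RPKM between 2 receptors of a family within each library (y axis, scaled separately in each panel) at L4-L5 and L6-S1 (x axis), with lines joining libraries of 1 donor and black marks for the mean and SD (n = 10). All 10 lines of Sstr2 minus Sstr4 fall from L4-L5 to L6-S1, whereas those of Npy1r minus Npy2r and Sstr1 minus Sstr2 go both ways.

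The receptor differences depended on the scale against which they were read. When each library was centred on the mean of the 8 general neuron markers, the median log2 fold change of all genes rose to 0.45. All 7 receptors lay below the median of all genes both before and after centring. Centring takes the same value off every gene of a library, so genes with a value in all libraries keep their distances to each other. That place below the median is therefore not a further result. On this scale 2 receptors remained upregulated in sacral DRG, Sstr4 with -0.94 (standard error 0.19, adjusted p = 3.7e-04 by limma) and Galr1 with -0.56 (standard error 0.16, adjusted p = 0.0039 by limma), beside 2.76% of all genes. On the same scale 63.4% of all genes were upregulated in lumbar DRG, and 66.1% passed in either direction, but no receptor was upregulated in lumbar DRG. Sstr4 was still higher in the sacral library of 10 of 10 donors, and Galr1 in 7 of 10. Npy1r had -0.20 (adjusted p = 0.068), Npy2r -0.03 and Npy5r -0.84 (adjusted p = 0.12), and Sstr2 and Sstr1 turned to 0.14 (adjusted p = 0.42) and 0.11. With the glial marker mean as a covariate no receptor passed (123 of 16304 genes did), Sstr4 keeping the largest estimate at -0.98 (standard error 0.41, adjusted p = 0.35 by limma) and Npy2r, Sstr2 and Sstr1 turning to 0.14, 0.18 and 0.20. The glial mean itself moved with the level, from 5.51 to 6.62 in lumbar and 4.50 to 5.76 in sacral libraries. That fit therefore cannot tell level and glial markers apart, and the standard error of Sstr4 rose from 0.22. A call missed there does not show that a level difference is absent.

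**Figure D3:**
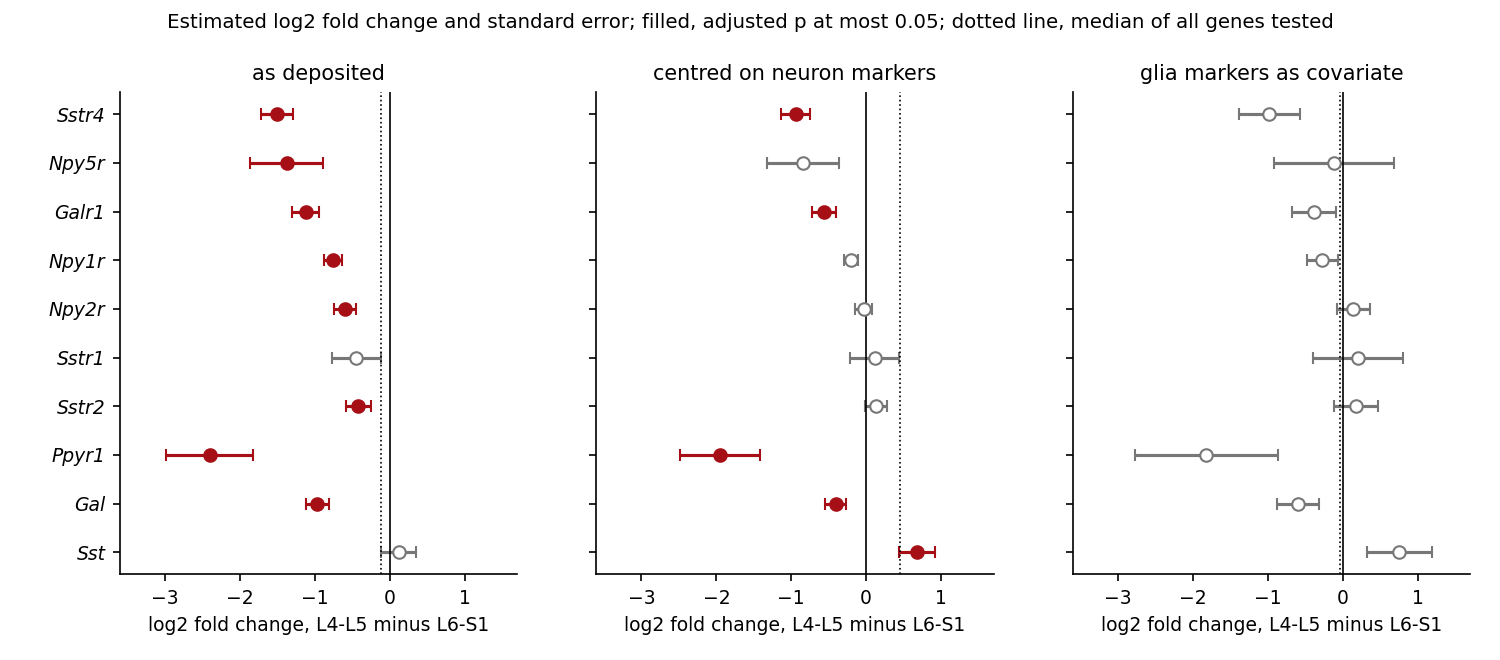
Log2 fold change, L4-L5 minus L6-S1, with its standard error (x axis) for 7 receptors, Ppyr1 and the peptides Gal and Sst (y axis) from the deposited values, after centring on neuron markers and with glial markers as a covariate. Filled points passed an adjusted p of 0.05, and the dotted line is the median of all genes tested, which sits at -0.11, 0.45 and -0.03 in the 3 panels.

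Of the peptides that bind these receptors, Gal and Sst had enough reads to be tested. Gal, the galanin precursor, was upregulated in sacral DRG, from 4.22 through 4.84 to 5.90 log2 RPKM in lumbar and from 5.29 through 5.87 to 6.47 in sacral libraries. It was higher in the sacral library of all 10 donors (log2 fold change -0.97, standard error 0.15, adjusted p = 5.2e-05 by limma) and passed after centring on neuron markers (-0.41, adjusted p = 0.016 by limma) but not with glial markers as a covariate (-0.60, adjusted p = 0.45). Sst, the somatostatin precursor, ran from 4.21 through 5.38 to 6.74 in lumbar and from 4.46 through 5.32 to 7.00 in sacral libraries. The donors split evenly, 5 each way, and the estimate of 0.12 (standard error 0.24) missed the threshold (adjusted p = 0.71 by limma). Centred on neuron markers, Sst was upregulated in lumbar DRG, with 0.68 (adjusted p = 0.016 by limma), beside a median of 0.45 for all genes on that scale. With total reads as the scale its estimate turned to -0.21, and in males alone to -0.59.

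Npy had reads in 6 of 20 libraries, at most 14 in any, so the peptide of the most abundant receptor family was close to undetected in the sorted cells. Cort had reads in 7 libraries, at most 41, and Ppy 23 reads in 1 library. Galp and Pyy had no value in any library.

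No receptor passed the tests for a sex difference or for an interaction of sex and level. Of the 7 receptors, 0 passed by limma in lumbar libraries, in sacral libraries and for the interaction, against 0.0368%, 0.0307% and 0% of all genes, and voom gave 0 in each as well. At an unadjusted p under 0.05 there was 1 receptor in lumbar libraries, 1 in sacral libraries and 0 for the interaction, against 11.4%, 8.14% and 4.07% of all genes. The lumbar one was Npy2r, which ran from 3.26 to 4.37 log2 RPKM in females and from 2.49 to 3.78 in males (difference 0.66, standard error 0.23, adjusted p = 0.33 by limma). The sacral one was Sstr2, which ran from 2.44 to 3.38 in females and from 3.08 to 4.31 in males (difference -0.85, standard error 0.26, adjusted p = 0.38 by limma). The ranges of females and males overlapped in both genes. The largest interaction estimates among the receptors were -0.74 for Sstr1 (standard error 0.66) and 0.57 for Sstr2 (standard error 0.33).

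The genes that make the peptides and carry the receptor signal were described by list. Over the lists of ligands, peptide processing, G proteins, effectors, desensitisation and related receptors, 60 of 85 genes tested passed, 54 of them upregulated in sacral DRG, beside 45.6% and 30.4% of all genes. The median log2 fold change was -0.43 beside -0.11 for all genes. After centring on neuron markers 40 passed, of which 13 went toward sacral and 27 toward lumbar DRG (2.76% and 63.4% of all genes), and with glial markers as a covariate 3 passed. The directions given for the lists are those of the deposited scale.

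Of 11 subunits of the Gi/o class, 9 were upregulated in sacral DRG and 0 in lumbar DRG (median -0.28), but after neuron centring 0 passed toward sacral and 8 toward lumbar DRG. The 3 largest were Gnaz (-0.60), Gnao1 (-0.59) and Gnb5 (-0.52), of which Gnao1 encodes the abundant neuronal Go alpha subunit. After neuron centring these had -0.04, -0.03 and 0.04, and none of the 3 passed.

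All 3 GIRK channel genes tested were upregulated in sacral DRG, Kcnj9 by -1.52 (standard error 0.44, adjusted p = 0.0079 by limma), Kcnj6 by -0.94 and Kcnj3 by -0.64. Kcnj5, with a value in 7 libraries, was not tested. Kcnj9 passed the low expression filter only through sacral libraries (mean -0.95, beside -2.47 in lumbar libraries), so its sacral level decided that it was tested. Kcnj6 had a mean of -1.75 in lumbar and -0.81 in sacral libraries, below and above the filter limit of -1. After neuron centring 0 of the 3 passed, and Kcnj3 turned to 0.15 with glial markers as a covariate. Kcnj9 missed the threshold with that covariate (adjusted p = 0.39 by limma), in males alone (0.13) and in females alone (0.052), and Kcnj3 in females alone (0.13). Kcnj6 also missed the threshold in each sex alone and without males 3, 4 or 5 or females 1 or 5, with estimates of -0.89 to -0.82 without those donors.

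Of the presynaptic calcium channel genes, Cacna1b, the N-type channel, was upregulated in sacral DRG (-0.99, standard error 0.15, adjusted p = 3.5e-05 by limma) and stayed so after neuron centring (-0.43, adjusted p = 0.003 by limma), but not with glial markers as a covariate (-0.36, adjusted p = 0.64). Cacna1a lay at the threshold (-0.31, adjusted p = 0.05 by limma). Its call was lost without any 1 donor other than male 2 (-0.34 to -0.27), unpaired and under quantile, median, TMM and voom scaling, and its estimate turned to 0.25 with either marker adjustment.

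Of 9 adenylyl cyclases, 5 were upregulated in sacral DRG and 2 in lumbar DRG (median -0.40), and after neuron centring 0 and 2. The 3 largest were Adcy4 at 1.11, Adcy8 at -1.04 and Adcy7 at -0.84. The Adcy4 call was lost under quantile and total read scaling, unpaired, and without males 1, 2, 3 or 4 or female 1 (1.02 to 1.15), and its estimate turned to -0.45 with glial markers as a covariate. The Adcy8 call was lost without female 2 (-0.83, adjusted p = 0.052 by limma). Of 6 genes of the Gq class and phospholipase C beta, 2 passed, Plcb3 (-0.55) and Gnaq (-0.43), both upregulated in sacral DRG, with a list median of -0.30; after neuron centring both estimates were above 0.

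Of 14 desensitisation genes, 9 were upregulated in sacral DRG and 1 in lumbar DRG (median -0.43), but after neuron centring 1 and 5. The largest were Grk4 at 0.90, Rgs8 at -0.88 and Rgs4 at -0.63, the Rgs genes coding for proteins that end G protein signals. All 3 missed the threshold with glial markers as a covariate, and Rgs4 did so after neuron centring too.

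Of 9 peptide processing and degradation genes tested, 7 were upregulated in sacral DRG and 1 in lumbar DRG (median -0.55), and after neuron centring 3 and 3. Pcsk1 (-1.74, standard error 0.14, adjusted p = 2.8e-08 by limma) and Pcsk2 (-1.02), the convertases that cut peptide precursors, led toward sacral DRG, each higher in the sacral library of 10 of 10 donors. Pcsk1 passed under all 28 alternatives, and Pcsk2 under all but the glial covariate. Mme (0.83), the membrane peptidase neprilysin, was upregulated in lumbar DRG and higher in the lumbar library of every donor, but turned to -0.32 with glial markers as a covariate.

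Of the other Gi/o-coupled receptors, 12 of 20 tested were upregulated in sacral DRG and 0 in lumbar DRG, with a median of -0.67, and after neuron centring 5 and 4. The largest changes were in Drd2, a dopamine receptor (-3.57, standard error 0.41, adjusted p = 3.1e-06 by limma), Oprk1, the kappa opioid receptor (-1.64), and Cnr1, the CB1 cannabinoid receptor (-1.31). Drd2 had a value in 19 libraries, with a mean of -2.91 log2 RPKM in lumbar and 0.71 in sacral libraries. It passed the low expression filter only through sacral libraries, so a high sacral level decided that it was tested. With glial markers as a covariate Drd2 passed and Oprk1 and Cnr1 did not.

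Of 9 peptide receptors of other classes, 4 were upregulated in sacral DRG and 2 in lumbar DRG (median -0.35), beside 30.4% and 15.3% of all genes. After neuron centring 2 went toward sacral and 2 toward lumbar DRG. The largest were Prokr2 (-2.25), Bdkrb2 (-1.36) and Adcyap1r1 (1.16). Each missed the threshold with glial markers as a covariate (adjusted p = 0.078, 0.71 and 0.95 by limma), and Bdkrb2 also did so in females alone (0.13). Bdkrb2 had a mean of -2.13 log2 RPKM in lumbar and -0.77 in sacral libraries. It passed the low expression filter only through sacral libraries, so its sacral level decided that it was tested. The Adcyap1r1 call was lost in each sex alone, unpaired, under quantile and total read scaling, and without males 2, 3 or 5 or females 2, 3 or 4 (0.85 to 1.19).

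**Figure D4:**
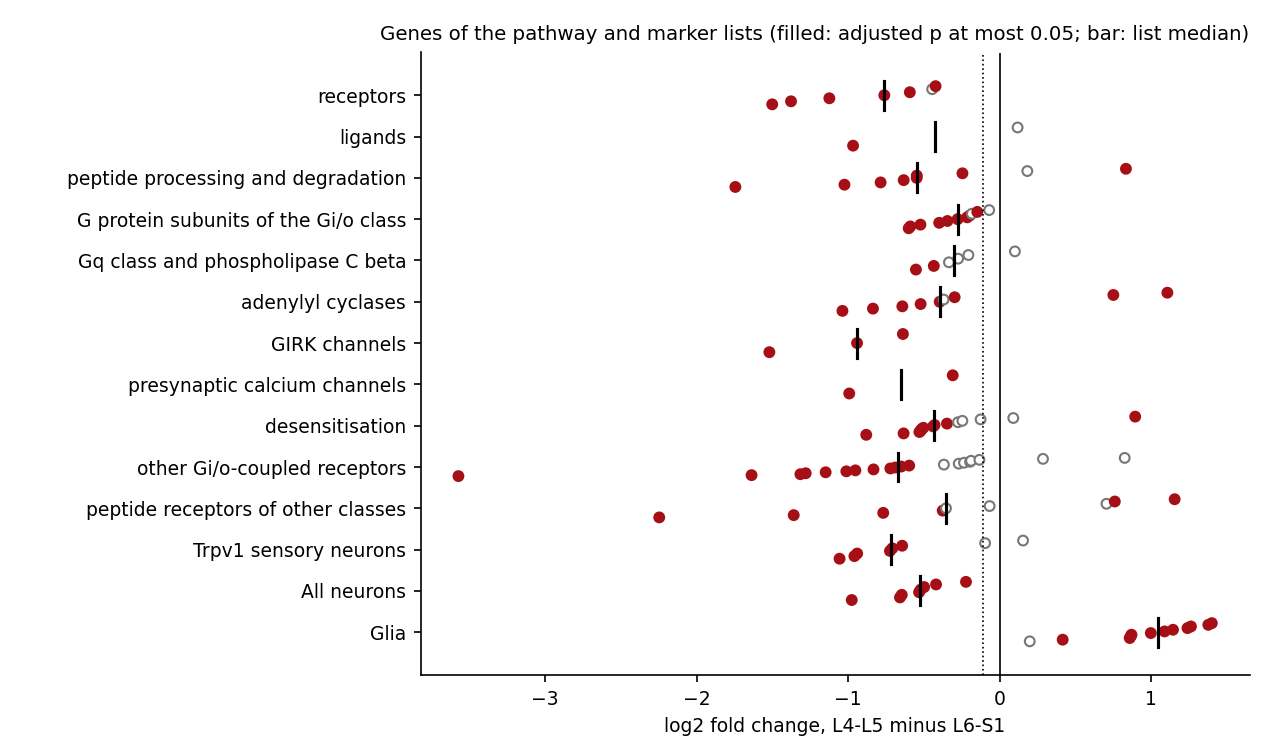
Log2 fold change, L4-L5 minus L6-S1 (x axis), of each gene tested in the pathway and marker lists (y axis), with filled points for an adjusted p of at most 0.05, black bars for the list medians and a dotted line at -0.11, the median of all genes tested. The receptor points all lie left of 0, as do the 8 general neuron markers, and the 12 glial markers lie right of 0.

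Genes whose levels ran most like those of a receptor were sought among the 12795 genes with a value in all 20 libraries and a mean log2 RPKM above 0. The correlations are over 20 libraries that share donors, 2 levels and the shift in marker genes, and they are given as a description. Npy1r was most like Adcyap1, the PACAP precursor (Pearson's r = 0.98, and 0.95 for deviations from the level means), then Kcnmb2 (0.93) and Gpx3 (0.92). Npy2r was most like Camk2a (0.93), Camk4 (0.92) and Jak1 (0.92), each at 0.90 or above within the levels. Galr1 was most like Cdk14 (0.95) and Grlf1 (0.95), and Sstr4 was most like Sh3gl2 (0.92), Lrrc3 (0.91) and Cntnap5a (0.91), with 0.74 to 0.78 within the levels. Sstr2 had the weakest likeness, 0.79 with Zfp9, 0.77 with Pogk and 0.76 with Dalrd3.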

How the data were processed

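RNA of Trpv1 neurons sorted from lumbar and sacral DRG was amplified, and libraries were sequenced on an Illumina HiSeq2500. Per the labels, the authors used Subread, featureCounts, limma 3.26.9 and edgeR 3.12.1, and the study describes alignment to mm9, counting on Ensembl genes, TMM scaling and voom. What they deposited is log2 RPKM with one column per library and the same median (0.93) in each. No constant was added before the log, so a cell with 0 reads is empty.

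Of 37620 genes, 37205 were matched to the NCBIM37 annotation. Reads per gene were worked back from the deposited log2 values: 98.1% of 430293 values came out whole within 0.01 reads, and these reads served for depth and alternatives. Intervals and limits from reads cover counting error only, since the libraries were amplified without molecular identifiers.

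limma 3.58.1 with statmod 1.5.0 in R 4.3.3 was fitted to 4 groups with a trend and the donor as a block. Genes were kept when the mean of at least 3 values was above -1 in a group. A gene could thus enter through a group where it was high. Of 16422 genes kept, 16304 were tested. P-values were adjusted by Benjamini-Hochberg at 0.05 over all genes tested. The study used voom on counts; a trend fit took its place because the table holds log values. Libraries were paired by the animal numbers in the labels. Deviations from group means correlated at 0.18 on average between the libraries of a donor (0.04 to 0.30 over 10 pairs) and at -0.04 between donors. Single comparisons used exact permutation tests, two-sided, in Python 3.11.15 with numpy 2.4.6. The fit was tested on simulated data before use.

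The genes named were the receptors, their family members and peptides, the 3 largest changes past the threshold in each pathway list, and the 3 genes most like each receptor that passed with a value in all libraries; 1 gene that met this rule is not reported here. Receptors and lists were chosen with earlier results of these data known. Alternatives covered filters, pseudocounts, scalings, marker adjustments, the donor block and donors left out.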

Additional observations from a re-analysis of the deposited data

Results flagged for a closer look

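Across 31 groups of 4 or 5 libraries, the receptors were examined for a library far from the rest, by Dixon's ratio of the gap to the range. About 1 in 20 groups, or 5%, would pass by chance. In the lumbar libraries of females, Sstr1 in female 5 stood at -2.49 log2 RPKM, from 21 reads, beside a next lowest value of -0.51. In the sacral libraries of females, Npy5r in female 3 stood at -4.62 log2 RPKM, from 6 reads, beside a next lowest value of -1.33. Both are low values of genes with few reads. Without female 5 the Sstr1 estimate moved toward 0 at -0.13 and stayed outside the threshold, and without female 3 the Npy5r estimate was -1.67 (adjusted p = 6.6e-04 by limma). No receptor had males all moving one way between the levels and females all moving the other.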

How the results depend on the processing

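The count of receptors passing between the levels was 6 of 7. It was 7 with total reads as the scale (Sstr1 at -0.78, adjusted p = 0.042 by limma), 2 after centring on neuron markers, 0 with the glial covariate, 3 in females alone and 4 at an adjusted p of 0.01. Leaving out donors in turn gave 4 to 6. In females alone the calls of Npy2r, Sstr2 and Npy5r were lost (adjusted p = 0.21, 0.57 and 0.37 by limma). In males alone that of Sstr2 was lost (adjusted p = 0.061 by limma). Sstr4 and Galr1 kept their direction under every alternative and passed under 27 of 28, all but the glial covariate, which itself moved with the level. Without the donor block 4 passed, Sstr2 and Npy5r missing the threshold, and with the donor as a fixed block 6 passed; the block changed no sex or interaction call. Quantile, median, TMM and voom scaling each lost Sstr2 and left 5. With no filter on low values 4 passed, and there Npy5r was not tested and Galr2 was tested without passing. Among the genes named in the report, estimates that turned sign with the neuron marker centring were Sstr1 (0.11), Sstr2 (0.14), Cacna1a (0.25), Gnaq (0.12), Gnb5 (0.037) and Plcb3 (0.0065). With the glial covariate they were Sstr1 (0.20), Sstr2 (0.18), Npy2r (0.14), Adcy4 (-0.45), Cacna1a (0.25), Kcnj3 (0.15), Mme (-0.32) and Plcb3 (0.16). Sst turned to -0.21 with total reads, -0.59 in males alone and -0.010 without male 5, with 0.29 as the highest value over donors left out. The pathway lists had 60 genes passing and 3 with the glial covariate. Pairs of receptors that shifted within a family numbered 1, but 3 with a pseudocount of 0.1 or 1 and 2 unpaired or without female 5. With a pseudocount, a pair is no longer free of library scaling. Sstr1 minus Sstr2, which had no call, turned to 0.19 and 0.036 with pseudocounts of 1 and 0.1, to 0.10 without male 5, and to 0.13 and 0.28 without females 1 and 5, the lowest value over donors left out being -0.28. Neuron centring takes the neuron marker difference, -0.56 lumbar minus sacral, off every gene with a value in all libraries. Negative estimates nearer 0 than that therefore turn sign. The cause of the other changes was not tested. The share of calls upregulated in sacral DRG over all genes was 66.6%, but 4.17% after neuron centring, 88.3% with total reads, 52.9% with quantile scaling, 51.1% with TMM, 50.3% with voom and 91.9% with the glial covariate. The median log2 fold change of all genes, -0.11 as deposited, was 0.45 after neuron centring, -0.44 with total reads and 0.0021 with TMM.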

Other observations

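Values of 2 related genes outside the receptor list were arranged by sex, although neither sex difference passed over all genes. Sst ran from 5.56 to 6.74 log2 RPKM in the 5 lumbar libraries of females and from 4.21 to 5.20 in those of males (difference 1.46, standard error 0.37, unadjusted p = 6.9e-04, adjusted p = 0.22 by limma). In sacral libraries the sexes overlapped, from 4.46 to 7.00 in females and from 4.75 to 5.95 in males (difference 0.04). Ppyr1 had 75 to 205 reads in the sacral libraries of females and 16 to 41 in those of males, with log2 RPKM from -1.36 to -0.02 and from -3.85 to -2.35 (difference 2.32, standard error 0.73, unadjusted p = 0.0054, adjusted p = 0.43 by limma). Of all genes tested, 11.4% had an unadjusted p under 0.05 for sex in lumbar libraries and 8.14% in sacral libraries. How many genes have ranges of females and males that stay apart was not counted. Both genes were singled out after their values were seen, and Ppyr1 was tested only because its sacral female libraries passed the low expression filter.

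The balance of Sstr2 and Sstr4 covered different ranges in the sexes at both levels. In sacral libraries Sstr2 exceeded Sstr4 by 1.88 to 2.69 log2 RPKM in males and by -0.10 to 2.26 in females, with medians of 2.22 and 0.44. In lumbar libraries it did so by 2.79 to 3.26 in males and by 1.60 to 3.02 in females, with medians of 2.92 and 1.90. This was seen after the fact and was not tested.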
